A study of Homo sapiens with 18 samples.

Results

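The Fc receptor-like (FCRL) genes FCRL1, FCRL2, FCRL3, FCRL4, FCRL5, FCRLA and FCRLB were followed in Raji, a B cell line established from a human Burkitt lymphoma. They were taken by name from the count table, and the family was selected on the strong fall of FCRL4 with time in GFP high cells. All 7 of 7 were found among 60707 genes read, and all 7 passed the filter on low counts that left 16474 genes. Changes with time in GFP high cells are therefore described below without a test.

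The series examines removal of SMARCA4 (BRG1), the ATPase of BAF chromatin remodelling complexes, through an auxin-inducible degron in these cells. GFP high and GFP low cells were taken after 24, 48 and 72 h, and total RNA without its ribosomal part was sequenced in 3 libraries per group, 18 libraries in all. All 6 groups are Raji cells with the genotype given as Smarca4+/+. The sources used here do not state the auxin treatment, what the GFP level reports, the event from which hours count, or the number of clones behind the line. Nor do they state which GFP fraction had lost the protein. The column names of the unnumbered library set join GFP to BRG1, without saying what a high or low level stands for.

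FCRL proteins are relatives of the classical Fc receptors and are found mainly on B cells. FCRL1 to FCRL5 are surface receptors whose tails carry tyrosine motifs. Phosphorylated motifs recruit phosphatases such as PTPN6 (SHP-1) or kinases, and so tune B cell receptor signalling. FCRL1 is regarded as activating, and FCRL4 is known from memory B cells of mucosal and other tissues. FCRLA and FCRLB lack a membrane anchor and stay inside the cell, where FCRLA binds immunoglobulin.

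Both gene clusters lie on chromosome 1. FCRL5 (ENSG00000143297.19, 157513377 to 157552515), FCRL4 (ENSG00000163518.11, 157573747 to 157598085), FCRL3 (ENSG00000160856.21, 157674321 to 157700769), FCRL2 (ENSG00000132704.16, 157745733 to 157777132) and FCRL1 (ENSG00000163534.15, 157794403 to 157820120) follow each other on the minus strand in hg38. FCRLA (ENSG00000132185.18, 161706972 to 161714352) and FCRLB (ENSG00000162746.14, 161721563 to 161728143) lie on the plus strand, next to the IgG receptor gene FCGR2B. In GFP low cells FCRL1 to FCRL5 fell from 24 to 72 h, and FCRLA and FCRLB did not.

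The 250 bases before the RefSeq start (GRCh38.p14) of the 5 genes that fell together are shown 5′ to 3′ on the minus strand, because their shared change makes the upstream sequence of interest. Capitals mark the ETS core GGAAGT on either strand, read here as ACTTCC, which PU.1 (SPI1) and SPIB can bind. The motif was chosen after the sequences were seen.
FCRL4, chr1:157598086-157598335: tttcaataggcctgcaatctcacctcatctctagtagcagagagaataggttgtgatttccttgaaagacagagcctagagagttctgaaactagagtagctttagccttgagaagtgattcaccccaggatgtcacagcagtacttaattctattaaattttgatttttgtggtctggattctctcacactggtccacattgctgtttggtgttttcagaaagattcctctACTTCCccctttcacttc
FCRL5, chr1:157552516-157552765: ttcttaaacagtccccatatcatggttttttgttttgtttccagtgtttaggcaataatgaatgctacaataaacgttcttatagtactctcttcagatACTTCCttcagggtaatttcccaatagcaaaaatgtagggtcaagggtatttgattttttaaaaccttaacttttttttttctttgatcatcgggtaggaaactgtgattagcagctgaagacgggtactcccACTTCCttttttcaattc
FCRL3, chr1:157700770-157701019: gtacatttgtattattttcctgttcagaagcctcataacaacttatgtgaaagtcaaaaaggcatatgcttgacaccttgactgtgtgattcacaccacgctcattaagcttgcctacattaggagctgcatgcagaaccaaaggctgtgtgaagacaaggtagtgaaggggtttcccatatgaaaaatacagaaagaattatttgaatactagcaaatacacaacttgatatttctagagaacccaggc
FCRL2, chr1:157777133-157777382: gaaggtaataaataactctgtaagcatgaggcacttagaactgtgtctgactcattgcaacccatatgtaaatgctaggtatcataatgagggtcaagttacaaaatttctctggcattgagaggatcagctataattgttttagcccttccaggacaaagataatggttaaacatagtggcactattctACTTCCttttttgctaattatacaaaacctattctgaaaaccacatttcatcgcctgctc
FCRL1, chr1:157820121-157820370: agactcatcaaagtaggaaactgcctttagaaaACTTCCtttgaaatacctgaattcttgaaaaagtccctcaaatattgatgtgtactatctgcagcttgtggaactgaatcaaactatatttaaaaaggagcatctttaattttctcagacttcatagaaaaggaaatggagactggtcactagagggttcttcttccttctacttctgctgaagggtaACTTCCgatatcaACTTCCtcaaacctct

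The windows of FCRL4, FCRL5, FCRL2 and FCRL1 hold this motif and that of FCRL3 does not. The window of FCRLA, which did not fall with time in GFP low cells, holds it as well. The 7 genes have 9 windows, because FCRLB has several, and 5 of the 9 hold the ETS motif, none of them at FCRLB. Among all 35116 RefSeq windows of this length 19.5% hold it. TGGGAA, the core bound by RBPJ, was found on either strand upstream of FCRL5, FCRL3 and FCRLB and in 20.8% of all windows. The octamer ATGCAAAT was found upstream of FCRLB alone (1.63% of all windows), and CCCNNGGG, the EBF core, in no window of the family (17.1% of all windows). These motifs do not overlap in the windows shown. A match describes letters only.

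Each library held 27257876 to 55419458 counts in genes. Levels are given as CPM, counts scaled to library size with TMM factors, in the order unnumbered set, set 1 and set 2, the library sets named in the columns. SMARCA4 mRNA ranged from 405.3 to 614.2 CPM over the 18 libraries, with 411.5 to 429.0 CPM in GFP high and 574.9 to 614.2 CPM in GFP low cells at 24 h. This mRNA does not check removal of the protein. The B cell markers MS4A1, CD79A, CD79B, PAX5, CD22 and BLK were each at 56.3 CPM or more in every library. For other cell types, 6 of 7 plasma cell markers, 6 of 7 T cell markers, 3 of 7 myeloid, 1 of 7 NK cell and 1 of 7 epithelial, kidney or fibroblast markers passed the filter. Summed T cell markers lay at 44.0 to 46.8 CPM in GFP high and 22.8 to 25.8 CPM in GFP low cells at 24 h, and summed plasma cell markers at 959.3 to 999.6 and 521.1 to 541.4 CPM. At 72 h the sums were 51.3 to 53.6 and 37.4 to 40.5 CPM for T cell, and 1174 to 1244 and 1272 to 1303 CPM for plasma cell markers. JCHAIN alone had group means of 699 CPM in GFP high and 280 CPM in GFP low cells at 24 h. PRDM1 lay in the opposite order, at 26.2 and 69.6 CPM. Of 6 tested plasma cell markers, 2 were called higher and 4 lower in GFP low cells at 24 h. Among all genes 29.3% were called higher and 28.5% lower. Most of the T cell sum was TRBC2 (14.2 to 25.0 CPM over all libraries) and LCK (5.64 to 23.6 CPM). Each other T cell marker reached at most 3.39 CPM. FCGR3A and S100A8 had no count in any library, CD2 and MPO at most 1, and SDC1 at most 2. Myeloid markers summed to 2.16 to 2.48 CPM in GFP low cells at 24 h and to 1.63 CPM or less in all other groups. The epithelial, kidney and fibroblast sum, nearly all COL1A1, was 7.79 to 9.83 CPM in GFP low and 5.22 to 5.59 CPM in GFP high cells at 24 h. This order at 24 h was also seen for FCRL4. At 72 h the sum was 1.71 to 2.26 CPM in GFP low and 2.14 to 2.68 CPM in GFP high cells. The fractions thus overlapped at 72 h, as they did for FCRL4. The NK cell sum was 1.48 CPM or less. The part of these markers in the results below was not tested. Whether fewer cells of a type or less RNA per cell lowers a level cannot be told apart in bulk RNA.

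Within the family, levels per kilobase of summed exon length spanned a wide range. FCRLA was highest in every library, with group means of 20.2 to 43.2 CPM per kb, followed by FCRL3 with 1.91 to 9.42 CPM per kb. FCRL4 lay between 0.119 and 3.12 CPM per kb and FCRLB between 0.765 and 1.62 CPM per kb. FCRL2, FCRL1 and FCRL5 were low, at most 0.435, 0.403 and 0.184 CPM per kb. At 24 h in GFP high cells FCRL4 (1.37 to 1.62 CPM per kb) and FCRLB (1.36 to 1.62 CPM per kb) overlapped, whereas at 72 h FCRL4 lay at 0.166 to 0.256 and FCRLB at 1.33 to 1.52 CPM per kb. The scale divides by all annotated exons, 2592 bases for FCRLB and 12414 for FCRL5, so it understates genes of which only part is used.

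**Figure D1:**
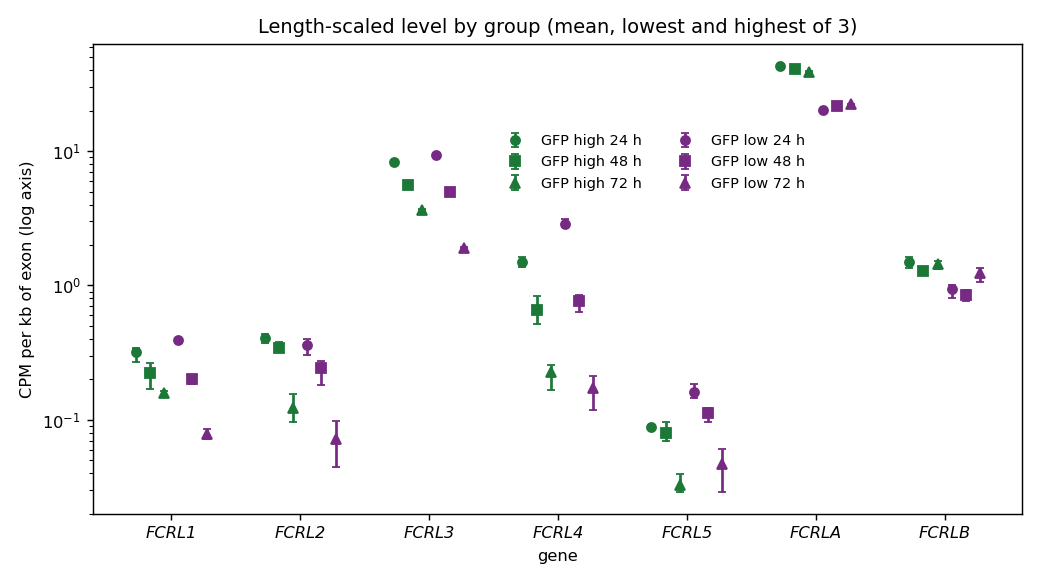
Length-scaled level (CPM per kb of summed exon length, log axis) of the 7 genes in the 6 groups. Symbols are means of 3 libraries and bars run from the lowest to the highest library. FCRLA and FCRL3 lie above the other members at 24 h, and FCRL4 covers the widest range on the log axis, from 0.119 to 3.12 CPM per kb.

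FCRL4 was the member with the largest change. In GFP high cells, whose fall chose the gene, it was at 5.32, 5.89 and 6.28 CPM at 24 h, 2.40, 2.01 and 3.25 CPM at 48 h, and 0.977, 0.996 and 0.645 CPM at 72 h. The fitted log2 change from 24 to 72 h was -2.79 ± 0.19 (SE). In GFP low cells, which did not enter the choice, FCRL4 was at 12.1, 10.7 and 10.7 CPM at 24 h, 2.46, 3.27 and 3.15 CPM at 48 h, and 0.462, 0.820 and 0.737 CPM at 72 h. The libraries of the 3 times do not overlap in either fraction. At 72 h these values rest on 15 to 33 counts per library.

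The fall of FCRL4 in GFP low cells was 3.76-fold from 24 to 48 h (log2 change -1.91 ± 0.15, edgeR adjusted p = 2.96e-10) and 4.40-fold from 48 to 72 h (-2.14 ± 0.21, adjusted p = 1.11e-07). From 24 to 72 h it was 16.5-fold (-4.05 ± 0.19, adjusted p = 5.21e-14), the eighth lowest fitted change of all tested genes. Between the fractions, the fitted FCRL4 value of GFP low cells was 1.90 times that of GFP high cells at 24 h (log2 difference 0.93 ± 0.14). At 48 h the difference was 0.18 ± 0.17 and at 72 h -0.33 ± 0.26. These differences are given without a test, because the GFP high libraries entered the choice of the gene. The order of the 6 groups was thus GFP low 24 h, GFP high 24 h, then both fractions at 48 h and both at 72 h, with overlap between the fractions at the later times.

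FCRL3, the most abundant of the surface receptors in these cells and a receptor for secretory IgA, was measured with the smallest error among them. In GFP high cells it was at 54.3, 52.5 and 52.8 CPM at 24 h, 36.7, 35.8 and 36.0 CPM at 48 h, and 23.7, 22.9 and 24.0 CPM at 72 h. GFP low cells had 61.0, 60.2 and 61.0 CPM at 24 h, 31.1, 32.4 and 32.6 CPM at 48 h, and 12.0, 12.5 and 12.5 CPM at 72 h. No group overlapped with another. GFP low cells thus held the highest level at 24 h and the lowest at 72 h. The difference between the fractions was 0.19 ± 0.03 at 24 h (adjusted p = 1.24e-05), -0.17 ± 0.03 at 48 h (adjusted p = 0.000432) and -0.93 ± 0.04 at 72 h (adjusted p = 1.81e-13).

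Within GFP low cells FCRL3 fell 4.92-fold from 24 to 72 h (log2 change -2.30 ± 0.04, adjusted p = 1.55e-21). In GFP high cells the same change was -1.18 ± 0.03. The test of the difference between these changes gave -1.12 ± 0.05 (adjusted p = 8.50e-14). An antisense gene without a symbol overlaps FCRL3 but had at most 3 counts in any library.

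FCRL1 followed the same course at a lower level, with 9 to 73 counts per library. Its CPM was 1.35, 1.35 and 1.07 in GFP high and 1.59, 1.57 and 1.5 in GFP low cells at 24 h. At 72 h it was 0.580, 0.634 and 0.645 in GFP high and 0.308, 0.335 and 0.285 in GFP low cells. The fractions did not overlap at either time and lay in opposite order. The difference was 0.32 ± 0.17 at 24 h, which did not pass the test (95% interval -0.03 to 0.68, adjusted p = 0.112). It was -0.12 ± 0.19 at 48 h (-0.52 to 0.28, adjusted p = 0.793), where the fractions overlapped. At 72 h FCRL1 was 2.02-fold lower in GFP low cells (-1.01 ± 0.24, adjusted p = 0.00397).

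Within GFP low cells FCRL1 fell by 5.02-fold from 24 to 72 h (log2 change -2.33 ± 0.22, adjusted p = 4.45e-09), against -0.99 ± 0.19 in GFP high cells. The difference of the changes, -1.33 ± 0.30, passed the test (adjusted p = 0.00088).

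FCRL2, an inhibitory member known from memory B cells, had 6 to 100 counts per library. It fell by 4.82-fold from 24 to 72 h in GFP low cells (log2 change -2.27 ± 0.25, adjusted p = 6.25e-08), from 1.83 ± 0.254 (SD, n = 3) to 0.366 ± 0.135 CPM. GFP high cells went from 2.04 ± 0.166 to 0.614 ± 0.151 CPM (-1.68 ± 0.22). Most of the fall came after 48 h in both fractions, with -1.70 ± 0.26 in GFP low (adjusted p = 3.22e-05) and -1.44 ± 0.22 in GFP high cells from 48 to 72 h. FCRL2 was the one surface receptor with a lower mean in GFP low cells at all 3 times. Those differences, -0.17 ± 0.19, -0.50 ± 0.20 and -0.75 ± 0.28, did not pass the test (adjusted p = 0.476, 0.0792 and 0.0551). With the library set as a block the value at 48 h passed (-0.52, adjusted p = 0.0351). That fit called more genes in general at 48 h, 5780 of 16474 against 3926 in the main fit. The value at 72 h passed without the unnumbered GFP high library at 72 h (-0.88, adjusted p = 0.0407), the unnumbered GFP low library at 72 h (-0.98, adjusted p = 0.0325) or the set 2 GFP low library at 48 h (-0.75, adjusted p = 0.0411).

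FCRL5, a receptor for IgG, was the member that stayed higher in GFP low cells by its mean at all 3 times. It was at 1.05, 1.11 and 1.12 CPM in GFP high and 2.28, 1.90 and 1.79 CPM in GFP low cells at 24 h. At 48 h it was at 0.918, 0.861 and 1.20 CPM and at 1.51, 1.20 and 1.45 CPM, and at 72 h at 0.367, 0.362 and 0.488 CPM and at 0.646, 0.745 and 0.357 CPM. The fractions were apart at 24 and 48 h and overlapped at 72 h. The difference passed the test at 24 h (0.85 ± 0.20, adjusted p = 0.000812). It missed the threshold at 48 h, where it was 0.46 ± 0.20 (95% interval 0.04 to 0.89 before adjustment, adjusted p = 0.11), and at 72 h (0.44 ± 0.27, -0.13 to 1.00, adjusted p = 0.312). In GFP low cells FCRL5 fell by 3.51-fold from 24 to 72 h (-1.81 ± 0.22, adjusted p = 3.39e-07), and GFP high cells changed by -1.40 ± 0.24. The difference between these changes did not pass the test (-0.41 ± 0.34, 95% interval -1.12 to 0.29, adjusted p = 0.352).

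**Figure D2:**
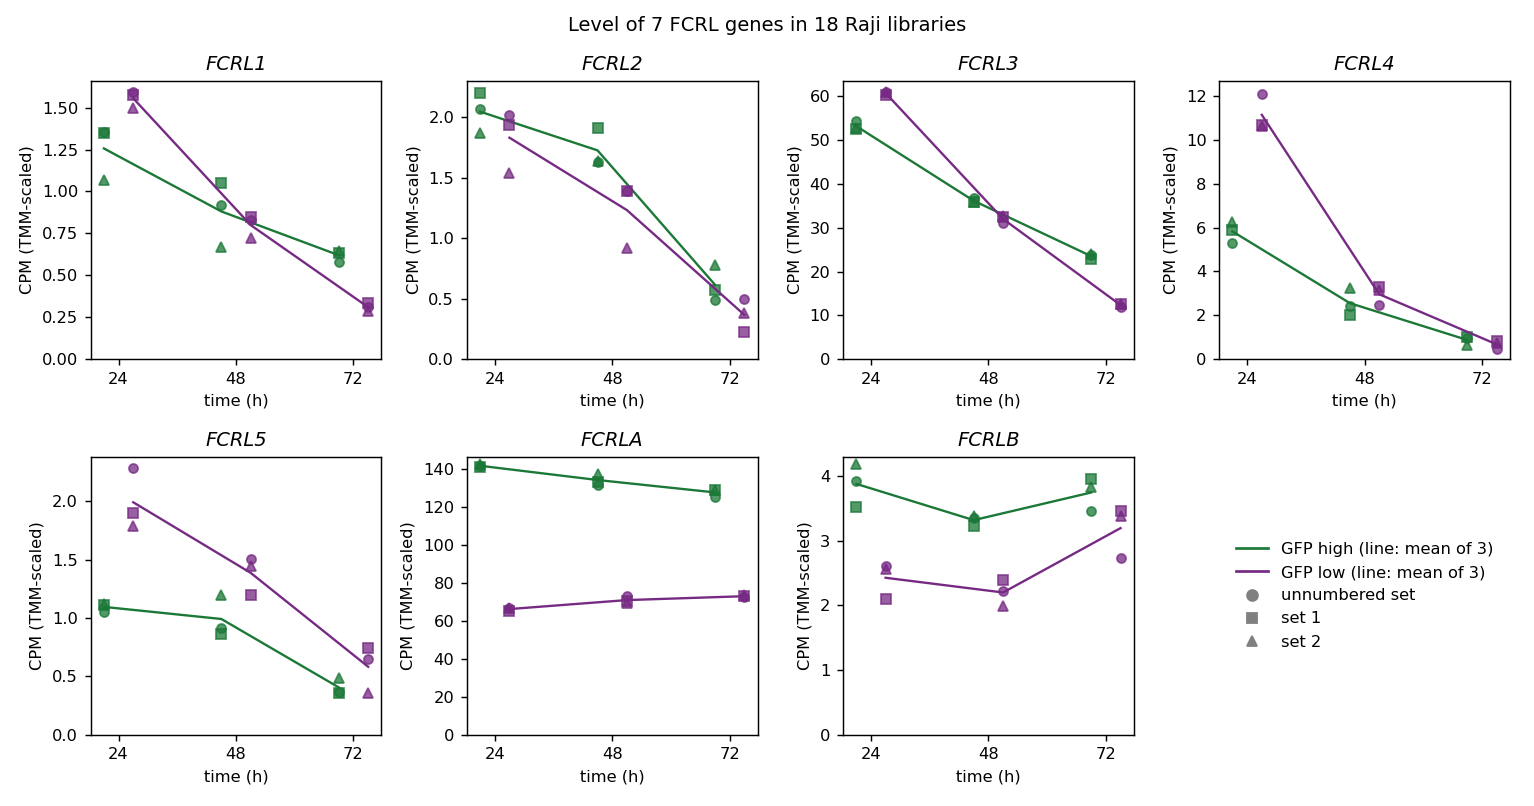
Level of each gene (CPM, vertical axis from 0) against time (24, 48 and 72 h, with the fractions drawn side by side), with 1 symbol per library, its shape giving the library set, and lines through group means. FCRL1 to FCRL5 decline in both fractions, while FCRLA keeps GFP high libraries at 125 CPM or more and GFP low libraries at 73.4 CPM or less.

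FCRLA, the abundant intracellular member, separated the fractions by GFP level at every time. It was at 141, 141 and 142 CPM in GFP high and 66.5, 65.4 and 66.6 CPM in GFP low cells at 24 h. At 48 h it was at 132, 133 and 137 CPM against 73.1, 70.5 and 69.1 CPM, and at 72 h at 125, 129 and 129 CPM against 72.4, 73.0 and 73.4 CPM. Every GFP high library lay above every GFP low library. FCRLA was 2.14-fold lower in GFP low cells at 24 h (-1.10 ± 0.03, adjusted p = 8.84e-19), 1.89-fold at 48 h (-0.92 ± 0.03, adjusted p = 3.13e-16) and 1.75-fold at 72 h (-0.81 ± 0.03, adjusted p = 2.06e-15).

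Over time FCRLA changed little. From 24 to 72 h it rose by 0.14 ± 0.03 in GFP low cells (adjusted p = 0.00016), and once the trend over gene length had been taken out the value was 0.03 (adjusted p = 0.387). In GFP high cells it was -0.15 ± 0.03. The gap between the fractions narrowed by 0.29 ± 0.04 (adjusted p = 1.39e-06), or by 0.19 with the length trend removed (adjusted p = 0.000443).

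FCRLB, its neighbour and the less abundant intracellular member, was at 3.93, 3.52 and 4.19 CPM in GFP high and 2.62, 2.10 and 2.57 CPM in GFP low cells at 24 h. At 48 h it was at 3.36, 3.22 and 3.38 CPM against 2.22, 2.40 and 1.98 CPM, and at 72 h at 3.45, 3.95 and 3.83 CPM against 2.74, 3.46 and 3.38 CPM. The fractions were apart at the first times and overlapped at 72 h. FCRLB was lower in GFP low cells at 24 h (-0.67 ± 0.12, adjusted p = 5.73e-05) and 48 h (-0.60 ± 0.12, adjusted p = 0.000958). At 72 h the difference was -0.23 ± 0.12 (95% interval -0.48 to 0.02, adjusted p = 0.169).

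From 48 to 72 h FCRLB rose in GFP low cells (0.55 ± 0.12, adjusted p = 0.00232). Its rise from 24 to 72 h, 0.39 ± 0.13 (adjusted p = 0.0116), did not pass with the length trend removed (0.22, adjusted p = 0.137) or without 1 of the set 1 libraries of GFP low cells, that at 24 h (0.30, adjusted p = 0.0667) and that at 72 h (0.33, adjusted p = 0.0515), or without a filter (0.40, adjusted p = 0.0544). The narrowing of its gap, 0.44 ± 0.17 (adjusted p = 0.0418), did not pass by DESeq2 (0.45, adjusted p = 0.1) or without any 1 of 6 single libraries (highest adjusted p = 0.114).

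Counted over the family, all members passed the test in GFP low cells between 24 and 72 h, 5 lower and 2 higher. Among all tested genes 27.5% were called lower and 29.6% higher in that comparison. The members' median log2 change was -2.27, against 0.01 for all tested genes. From 24 to 48 h 5 members fell and 1, FCRLA, rose (25.1% and 25.7% of all genes), and from 48 to 72 h the same 5 fell and FCRLB rose (12.5% and 13.9%). In GFP high cells, 6 of 7 members, all but FCRLB, had all libraries at 72 h below all at 24 h, beside 20% of all genes, which is given as a description. FCRL4 is among the 6, and its place there was set by the choice of the gene. With the length trend removed, 5 members were called from 24 to 72 h in GFP low cells, all lower, and 9109 of 16474 genes in either direction. From 24 to 48 h 4 were then called, all lower, without FCRL5 (adjusted p = 0.123) and FCRLA (adjusted p = 0.946). Of all genes 7828 were called there in either direction. Without a filter FCRL2 (adjusted p = 0.0557) and FCRL5 (adjusted p = 0.107) were not called from 24 to 48 h, and by DESeq2 FCRL5 was not (adjusted p = 0.0791). Leaving out single libraries gave 4 to 6 called members in that comparison, beside 7683 to 8427 of all tested genes.

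**Figure D3:**
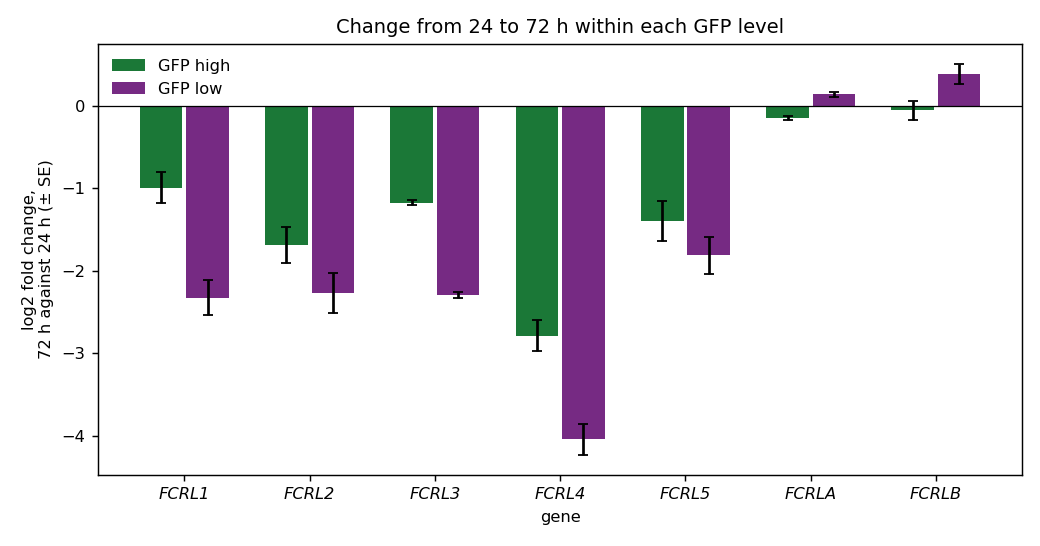
Log2 change from 24 to 72 h (bars from 0, with SE of the fitted model) in GFP high and GFP low cells. FCRL4 reaches -4.05 in GFP low and -2.79 in GFP high cells, FCRL1 and FCRL3 fall further in GFP low cells, and FCRLA and FCRLB stay between -0.15 and 0.39.

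Between the fractions the members did not all differ in the same direction. Of the 6 members other than FCRL4, 2 were higher in GFP low cells at 24 h (FCRL3 and FCRL5) and 2 lower (FCRLA and FCRLB), where 29.3% and 28.5% of all genes were called. Those counts at 24 h are near the shares over all genes and do not set the family apart. At 48 h 3 were lower (FCRL3, FCRLA and FCRLB) and none higher, with 13.2% and 10.6% of all genes. At 72 h 3 were again lower (FCRL1, FCRL3 and FCRLA) and none higher, with 13.5% and 12.9% of all genes. The median over all 7 members, FCRL4 included, was 0.19, -0.17 and -0.75 at the 3 times, and that of all tested genes 0.03, -0.01 and 0.00. FCRL4, whose GFP high libraries entered the choice of the gene, lay above the members' median at each time and so raised it.

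The change of this difference from 24 to 72 h was tested for the 6 members other than FCRL4. It passed for FCRL1 and FCRL3, which became relatively lower in GFP low cells, and for FCRLA and FCRLB, which became relatively higher. Among all genes 19.6% were called lower and 22.2% higher. It did not pass for FCRL2 (-0.59 ± 0.34, 95% interval -1.30 to 0.13, adjusted p = 0.183). The value of FCRL4 was -1.26 ± 0.30, given without a test because its change in GFP high cells is part of it.

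**Figure D4:**
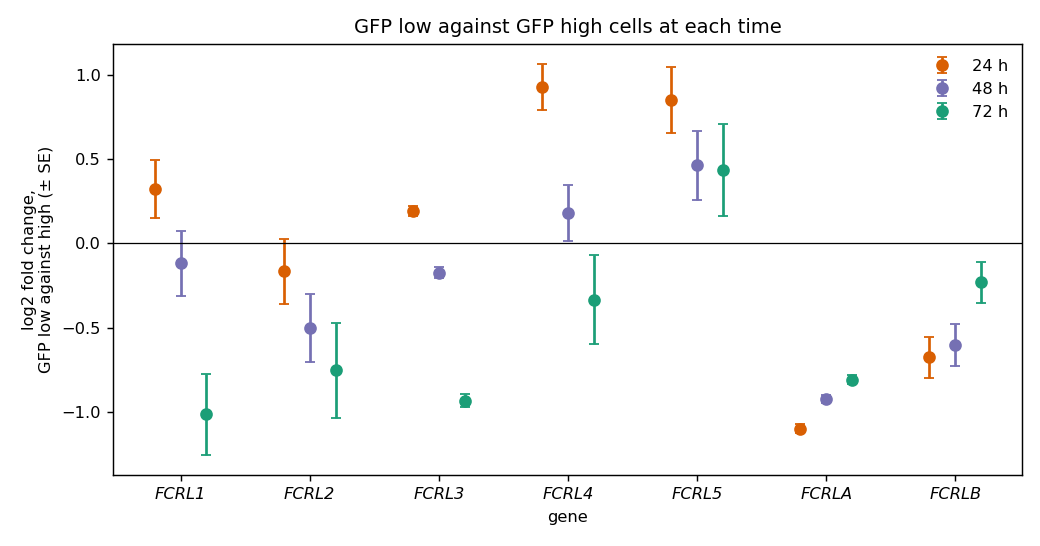
Log2 fold change of GFP low against GFP high cells (± SE) at 24, 48 and 72 h for each gene. FCRL3 passes from 0.19 to -0.93, FCRL4 from 0.93 to -0.33 and FCRL1 from 0.32 to -1.01, while FCRLA lies between -1.10 and -0.81.

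Over the 18 libraries, the log2 CPM of FCRL4 went with that of FCRL3 (Pearson's r = 0.94), FCRL1 (0.90), FCRL5 (0.86) and FCRL2 (0.83), and not with FCRLA (-0.11) or FCRLB (-0.33). FCRLA and FCRLB went together (r = 0.80). FCRL1 and FCRL3 were the closest pair (r = 0.98). These correlations describe libraries that share 6 groups and 3 sets. They include the GFP high libraries, which entered the choice of FCRL4.

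Among 11572 candidate genes the patterns most like that of FCRL4 over the 18 libraries were those of TFEC (r = 0.97), a transcription factor of the MITF family, the chemokine CCL22 (0.97), TNFAIP3, the A20 inhibitor of NF-kB signalling (0.97), the nuclear pore gene NUP62 (0.97) and the semaphorin receptor PLXNA1 (0.96). Over the 6 group means they were NUP62, COL1A1, CCL22, LY9 and TFEC (r from 0.989 to 0.997). CCL22 had 33.6 ± 0.942 CPM in GFP low and 17.9 ± 0.207 CPM in GFP high cells at 24 h (SD, n = 3), and 3.71 ± 0.281 and 3.48 ± 0.538 CPM at 72 h. NUP62 covered a narrow range, from 152.9 ± 4.91 CPM in GFP low cells at 24 h to 124.2 ± 2.18 CPM in the same fraction at 72 h. COL1A1, a collagen gene in the fibroblast list, ranged from 1.53 to 9.61 CPM, while its partner COL1A2 had at most 2 counts in any library.

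Genes beside the clusters were examined for the same changes. Within 100000 bases of FCRL5 to FCRL1 lie 9 other annotated genes, CD5L among them, and none passed the filter, with at most 9 counts in any library. Beside FCRLA and FCRLB 4 of the other genes were tested. The inhibitory IgG receptor FCGR2B was lower in GFP low cells at 24 h (-0.44 ± 0.06, adjusted p = 4.7e-06) and 72 h (-0.48 ± 0.07, adjusted p = 2.05e-05). It shares near-identical sequence with FCGR2C, so its counts are uncertain. DUSP12, a phosphatase, was lower at 24 h (-0.52 ± 0.05, adjusted p = 2.84e-08) and differed by 0.00 at 72 h (adjusted p = 0.971). ATF6, a sensor of unfolded protein, differed by 0.04 at 24 h (adjusted p = 0.183) and was lower at 72 h (-0.19 ± 0.03, adjusted p = 2.54e-05). ATF6-DT, its divergent transcript with 5 to 23 counts per library, differed by -0.49 at 24 h (adjusted p = 0.268) and was higher in GFP low cells at 72 h (1.09, adjusted p = 0.0281), where it had risen from 24 h (1.06, adjusted p = 0.0156).

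Of 16 other receptors for immunoglobulin listed, 7 were tested, and 3 fell and none rose in GFP low cells from 24 to 72 h, with a median of -0.23. Among all tested genes 27.5% fell and 29.6% rose in this comparison. FCER2 (CD23), the low-affinity IgE receptor, fell most (-1.10 ± 0.05, adjusted p = 9.87e-14) and FCGR2B fell by 0.45 on the log2 scale (adjusted p = 9.6e-06). FCRL6, the remaining surface member of the family, did not pass the filter. Of the genes through which FCRL receptors signal, 19 of 20 were tested, 6 rose and 9 fell, with a median of -0.10, where 29.6% of all genes rose and 27.5% fell. The B cell receptor chain CD79B (0.40 ± 0.04) and the kinase FGR (0.30 ± 0.03) rose, and the kinase SYK (-0.65 ± 0.02) and the adaptor PIK3AP1 (-0.62 ± 0.02) fell. PTPN6, the phosphatase that FCRL tails recruit, was lower in GFP low cells at 72 h (-0.63 ± 0.04, adjusted p = 3.25e-10), as was the complement receptor CR2 (-0.98 ± 0.02, adjusted p = 1.04e-17).

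Of 13 inhibitory receptors of other families listed, 7 were tested, and 3 rose and 3 fell from 24 to 72 h in GFP low cells, with a median of -0.38. The shares over all genes were again 29.6% higher and 27.5% lower. The sialic acid receptor CD22 (0.27 ± 0.02) and the adaptor SIT1 (0.72 ± 0.05) rose, and SIGLEC10 (-0.81 ± 0.04) and LILRB1 (-0.38 ± 0.04) fell. SIGLEC10 and LILRB1 were also higher in GFP low cells at 24 h (1.13 ± 0.04 and 0.46 ± 0.04). Of memory and atypical B cell markers, with which FCRL4 and FCRL5 are often described, 8 of 15 were tested, 3 rose and 5 fell, with a median of -0.40, beside the same 29.6% and 27.5% of all genes. TNFRSF13B (TACI) fell (-1.03 ± 0.06) and the costimulatory ligand CD80 fell (-0.61 ± 0.04), while the memory marker CD27 (1.17 ± 0.05) and the factor SOX5 (0.15 ± 0.03) rose. TBX21 (T-bet), the transcription factor of atypical memory B cells, did not pass the filter.

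Genes for ligands of the family and its relatives gave 2 rises and 4 falls among 10 tested in GFP low cells from 24 to 72 h, where 29.6% of all genes rose and 27.5% fell. The antibody joining chain JCHAIN rose by 1.73 ± 0.04 (adjusted p = 8.19e-20) and HLA-DRA by 0.24 ± 0.02, and the class I genes HLA-B (-0.63 ± 0.03) and HLA-C (-0.58 ± 0.04) fell. HLA-B and HLA-C share near-identical stretches, so their counts are uncertain. IGHA1, the constant region of the IgA heavy chain, was higher in GFP low cells at 24 h (1.18 ± 0.07, adjusted p = 2.19e-12) and 72 h (1.41 ± 0.07, adjusted p = 2.56e-12), and it shares sequence with IGHA2. Of 16 transcription factors listed as candidate regulators 6 rose and 10 fell from 24 to 72 h in GFP low cells, with a median of -0.22, against 29.6% and 27.5% of all genes. IRF8 (0.48 ± 0.02) and BCL6 (0.40 ± 0.02) rose, and the NF-kB subunits NFKB2 (-0.94 ± 0.03) and NFKB1 (-0.43 ± 0.03) fell. SPIB, a B cell factor of the ETS family, was lower in GFP low cells at 72 h (-0.40 ± 0.04, adjusted p = 3.56e-07). In GFP high cells it was at 66.5 ± 2.51, 59.8 ± 2.80 and 68.8 ± 0.533 CPM at 24, 48 and 72 h (SD, n = 3). The same times gave 57.9 ± 3.45, 48.4 ± 1.98 and 52.1 ± 1.28 CPM in GFP low cells. PRDM1, the regulator of plasma cell differentiation, was higher in GFP low cells at 24 h (1.41 ± 0.04) and 72 h (1.47 ± 0.04).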

How the data were processed

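RNA of 18 Raji libraries was sequenced by the authors, and the deposited values are raw read counts per gene, summed over exons, per the file headers, which are those of featureCounts. The submitters' processing notes name STAR, featureCounts, R 4.2.1 and hg38 with no role or order. The annotation release, the strand setting and the handling of multi-mapping reads were not found in these sources. Of 60710 lines 3, the broken entry of ANK2, were not read. Columns were assigned to groups by their names, with D1, D2 and D3 read as 24, 48 and 72 h; they do not show which sample of the group they hold.

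Counts were fitted with edgeR 4.0.16 in R 4.3.3: filterByExpr, TMM, 6 group means and quasi-likelihood F tests, 2-sided, with Benjamini-Hochberg adjustment over 16474 genes and calls at adjusted p under 0.05. SE was taken as the size of the log2 difference divided by the root of its F statistic, and 95% intervals are approximate and unadjusted. Alternatives were DESeq2 1.42.0, RLE factors, no filter, the library set as a replicate block, a length trend removed (smoothing spline, 5 degrees of freedom) and each library left out.

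Replicate libraries differed by more than sampling noise (median chi-square over expected 1.45 to 2.76). Deviations from group means correlated at 0.10 to 0.31 for all 45 pairs of libraries of the same set, so the sets named in the columns pair the libraries. The main fit does not use this pairing, and only the fit with the library set as a replicate block does. Whether replicates are separate cultures is not in the labels, and the p-values reflect just the spread among these libraries, and that spread may be technical. The counts behind a level limit its precision. Members and lists were chosen with earlier results of these data known. Members are always named. In each list up to 2 genes per direction with the smallest adjusted p in GFP low cells from 24 to 72 h, or between fractions at 24 or 72 h, could be named, if called and at a mean of 1 CPM or more, and not all are described. TBX21, FCRL6, CD5L, COL1A2, ATF6-DT and the markers with few counts were named after their values were seen. For likeness to FCRL4, the 5 genes with the highest Pearson's r of log2 CPM (prior count 2) were taken. A listed marker is not reported here.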

Additional observations from a re-analysis of the deposited data

Results flagged for a closer look

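In 4 members the change from 24 to 72 h differed between the fractions by a test of the difference itself. Among all tested genes 19.6% were called lower and 22.2% higher by this test. The differences were -1.33 ± 0.30 for FCRL1 (adjusted p = 0.00088), -1.12 ± 0.05 for FCRL3 (adjusted p = 8.50e-14), 0.29 ± 0.04 for FCRLA (adjusted p = 1.39e-06) and 0.44 ± 0.17 for FCRLB (adjusted p = 0.0418) on the log2 scale. For FCRL1 the 3 GFP low libraries lay above the GFP high ones at 24 h and below them at 72 h, and for FCRL3 as well. For FCRLA the GFP low libraries stayed below at all times. For FCRLB the adjusted p under the removal of single libraries ranged from 0.0159 to 0.114. Its difference did not pass without a filter (adjusted p = 0.168), by DESeq2 (0.1) or with the length trend removed (0.187).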

How the results depend on the processing

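Counts of called members stayed within 1.5 times under RLE factors, no filter, the replicate block, the removed length trend and DESeq2 in each comparison. With the library set as a replicate block 4 members instead of 3 were called at 48 h between the fractions, and in the other comparisons the call of no other member changed. Among all genes, the block fit called 5780 at 48 h between the fractions and the main fit 3926. Without a filter, more genes were tested and the calls of FCRL2 and FCRL5 from 24 to 48 h in GFP low cells (adjusted p = 0.0557 and 0.107) and of FCRLB from 24 to 72 h (adjusted p = 0.0544) were lost. FCRL5 from 24 to 48 h was also lost by DESeq2 (adjusted p = 0.0791) and with the length trend removed (-0.36, adjusted p = 0.123), as was FCRLA (0.00, adjusted p = 0.946). For FCRLB the change of the difference was lost in each of these 3 fits (adjusted p = 0.168, 0.1 and 0.187); the cause was not tested. Leaving out each library in turn gave 4 to 6 called members from 24 to 48 h and 6 to 7 from 24 to 72 h in GFP low cells. Of 16783 to 16988 tested genes these fits called 7683 to 8427 and 8621 to 9464. Between the fractions at 72 h 3 to 4 members were called, and 3 to 4 for the change of the difference. All-gene counts were 3413 to 4416 and 6463 to 6952. In GFP high cells 6 to 7 members had a negative change from 24 to 72 h, FCRL4, chosen for its fall, among them. FCRL2 from 24 to 48 h was lost without the unnumbered or set 1 GFP low library at 24 h or the set 2 library at 48 h (highest adjusted p = 0.136), and FCRL5 without the unnumbered library at 24 h or the set 1 library at 48 h (highest 0.133). FCRL1 between the fractions at 48 h, which was not called, ranged from -0.30 to 0.034, the latter without the set 1 GFP high library at 48 h. Counts of 6 to 100 per library limit FCRL1, FCRL2 and FCRL5.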
